A study of Mus musculus with 4 samples.

Results

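Retinoid transport and metabolism was followed through 9 genes in adipocytes of mouse perigonadal white fat: the carriers and receptor of retinol Rbp4, Rbp7 and Stra6, the enzymes Rdh10, Dhrs3, Aldh1a1 and Aldh1a3, and the retinoic acid receptors Rara and Rarb. The 9 genes were taken by symbol from a table of 55487 genes, and each stood on 1 row. CKO and WT male littermates on the standard diet were compared, with 2 libraries in each group. The WT animals are called controls in the description of the series. The series title names BLIMP1, a transcriptional repressor, and macrophages in obesity and atherosclerosis. The labels do not say which allele the CKO animals carry, which promoter drives any Cre, how old the mice were, or whether animals were pooled. Read totals ran from 24152081 to 26742547 per library.

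Vitamin A circulates as retinol bound to retinol binding protein 4, which is made by liver and also by fat cells. Inside cells retinol is oxidised to retinal by retinol dehydrogenases, and retinal is oxidised to retinoic acid by retinaldehyde dehydrogenases of the ALDH1A family. Retinoic acid acts through the nuclear receptors RAR, paired with RXR, and in fat the pathway is known for restraining adipogenesis and for the link of circulating RBP4 to insulin resistance.

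The receptor complex binds direct repeats of the half-site AGGTCA and its variants; A or G was allowed at the first base and G or T at the third. Promoter windows from RefSeq on GRCm38.p6, 250 bases before to 50 after a transcription start, were at hand for 7 of the 9 genes (17 windows). They were searched on both strands for half-site repeats with a spacer of 1, 2 or 5 bases, known as DR1, DR2 and DR5. Only the Rarb window held a match, a DR5, with no other repeat overlapping it. A DR5 was present in 0.0974% of the 32851 windows of the whole table, a DR1 in 0.222% and a DR2 in 0.268%. The Rarb stretch is shown because its letters are those of the textbook retinoic acid response element that makes this gene a classical readout of retinoic acid. The DR5 is in capitals, from base -53 to base -37 before the start, within chr14:16575477-16575569 on the minus strand, and the stretch ends upstream of the start.
Rarb promoter: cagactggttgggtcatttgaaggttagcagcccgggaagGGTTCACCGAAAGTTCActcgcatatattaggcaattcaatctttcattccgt

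The libraries differed in the transcripts of several cell types. All 8 adipocyte markers had reads in every library, with a summed level of 381835 to 837138 scaled reads in CKO and 97849 to 403948 in WT. Single genes weigh heavily in such sums: Cfd alone gave 511557 of the 837138 in CKO replicate 1. All 7 macrophage markers were also present, with sums of 29565 to 70454 in CKO and 143138 to 406841 in WT. Lyz2 alone gave 256902 of the 406841 in WT replicate 2. The 6 endothelial markers summed to 50198 to 75679 in CKO and 14647 to 41372 in WT. Changes were positive for 7 of 8 adipocyte, 6 of 6 endothelial, 3 of 3 red blood cell, 3 of 4 smooth muscle, 3 of 6 mesothelial and 2 of 2 tested T and B cell markers, and negative for 6 of 7 macrophage and 5 of 6 fibroblast markers, none past the adjusted threshold. WT replicate 2 was lowest for the adipocyte and endothelial sums and highest for the macrophage sum. The 6 markers of epididymal epithelium, which lies beside this depot, had at most 2 reads in any library, and Lcn5 and Rnase9 were at 0 in all. Prdm1, which encodes BLIMP1, had 152 and 386 reads in CKO and 514 and 1135 in WT. Its level does not check the labels, because the labels do not name the exons removed in CKO. In bulk RNA, fewer cells of a type and less RNA per cell cannot be told apart.

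Per length, the 9 genes spanned a wide range of levels, and most neighbours in the order of levels kept it in each library. Levels here are RPKM, reads per 1000 bases of merged exon and per 1000000 reads of the library. Rbp7 and Rbp4 stood highest, with means over the 4 libraries of 312 and 216 RPKM, above 99.3% and 98.9% of the 16871 genes tested. Dhrs3 followed at 149 RPKM and Aldh1a1 at 50.1 RPKM. Rara (5.46 RPKM), Rdh10 (3.18), Aldh1a3 (1.57) and Rarb (0.669) were far lower, and Stra6 had no reads. Rbp7 exceeded Rbp4 in 3 of 4 libraries and Rbp4 exceeded Dhrs3 in 3 of 4, and the ranges of both pairs overlapped. From Dhrs3 down to Rarb each gene exceeded the next in all 4 libraries, although the ranges of Rara and Rdh10, and of Rdh10 and Aldh1a3, overlapped across libraries.

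**Figure D1:**
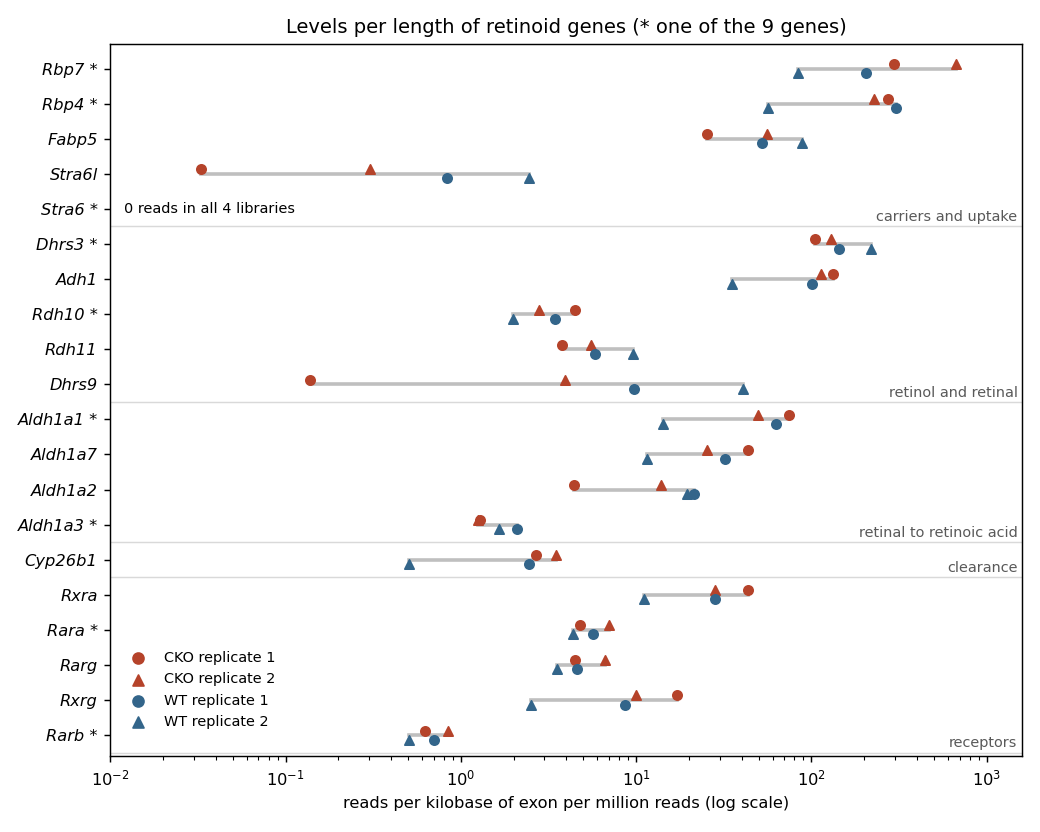
Levels of the 9 genes (marked with an asterisk) and of related pathway genes in RPKM on a log axis, with 1 point per library and a grey bar from the lowest to the highest library. Rbp7, Rbp4, Dhrs3 and Aldh1a1 lie between 14.3 and 665 RPKM, whereas Rara, Rdh10, Aldh1a3 and Rarb lie between 0.509 and 7.01 RPKM.

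No gene of the 9 passed the adjusted threshold between CKO and WT. Each change is the CKO mean less the WT mean of log2(scaled reads + 1), tested in limma with Benjamini-Hochberg adjustment over all 16871 genes, of which 0% passed at an adjusted p under 0.05. Enough reads for a test were present for 8 of the genes, and not for Stra6. Of these 8 genes, 6 (75.0%) had a positive and 2 a negative change, where 51.1% of all genes tested were positive. The median change was 0.28, against 0.015 over all genes tested, and ran from -0.025 without WT replicate 2 to 0.53 without WT replicate 1. Only Rbp7 (12.5% of 8) had an unadjusted p under 0.05, where 3.35% of all genes did so in the higher direction and 7.26% in the lower. Rbp7 alone (12.5% of 8) was higher in each CKO library than in each WT library, against 23.9% of all genes. Lower in each CKO library than in each WT library were Aldh1a3 and Dhrs3 (25.0% of 8), against 26.8% of all genes.

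**Figure D2:**
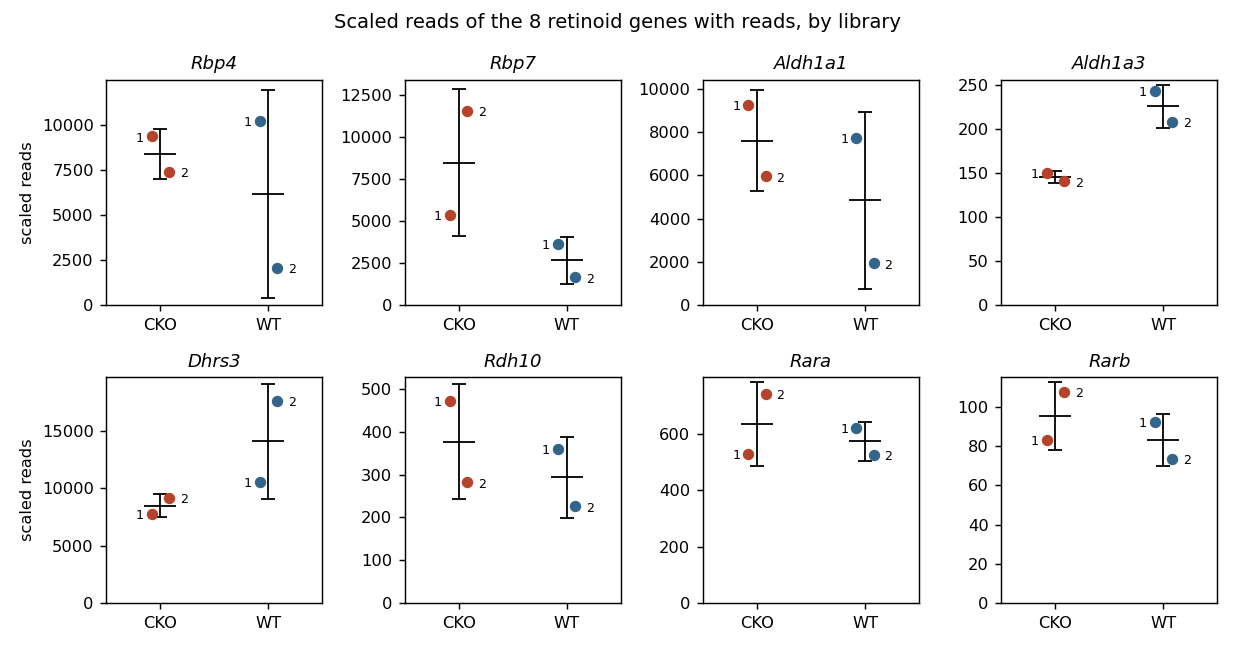
Scaled reads of the 8 genes with reads, in the 2 CKO and 2 WT libraries (points, numbered by replicate), with the mean and SD of each group as a bar and whiskers. Each panel has its own axis from 0. CKO and WT points separate for Rbp7, Aldh1a3 and Dhrs3, and WT replicate 2 lies far below the other 3 libraries for Rbp4 and Aldh1a1.

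Among the carriers, Rbp4 (chr19:38116629-38125281 of GRCm38, minus strand), the secreted retinol binding protein, showed no separation of the groups. Its reads numbered 9333 and 8157 in CKO and 9842 and 1981 in WT. WT replicate 1 was the highest of the 4 libraries and WT replicate 2 the lowest, with both CKO libraries between them. Scaled reads averaged 8369 ± 1387 in CKO and 6151 ± 5754 in WT (SD, n = 2 each). CKO minus WT gave a log2 change of 0.85 (SE 0.78; 95% interval -1.18 to 2.87), with an adjusted p of 0.635 in limma. Without WT replicate 2 the change was -0.30, and without WT replicate 1 it was 2.00 with an adjusted p of 0.0442, in a limma fit whose single WT library is taken to vary like the CKO libraries. Its adjusted p lay between 0.571 and 1.000 under the 12 settings other than that one. The sign and the call of Rbp4 therefore depended on which WT library was kept.

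Rbp4 stayed close to the adipocyte markers from library to library. Its log2 value minus the mean of the 8 adipocyte markers was -2.13 and -1.81 in CKO and -1.52 and -1.82 in WT, a range of 0.61, where Rbp4 itself had a range of 2.29. Of 82 genes of the marker and pathway lists, Cidec, a lipid droplet protein of fat cells, had the pattern nearest to Rbp4 over the 4 libraries. Its root mean square distance was 0.20 on the log2 scale, and that of Lipe, the hormone-sensitive lipase, was 0.29. Relative to Adipoq, the adiponectin gene, the RPKM of Rbp4 was 0.134 and 0.193 in CKO and 0.228 and 0.269 in WT. Both CKO ratios were thus below both WT ratios, but this depended on the marker. Against the mean of the 8 markers the groups overlapped. Adipoq had a log2 change of 1.47, and 7 of the 8 markers were positive. Lep, the leptin gene, was the exception at -1.23, with both CKO libraries below both WT libraries. An exact permutation test over 4 libraries cannot give a two-sided p below 0.333, so ratios are given without a test.

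Rbp7 (chr4:149449687-149454978, minus strand), an intracellular retinol binding protein known from fat and from capillary endothelium, was the only one of the genes with both CKO libraries above both WT libraries. There were 5374 and 12775 reads in CKO and 3539 and 1577 in WT. The groups did not overlap, but the CKO libraries differed from each other by more than CKO replicate 1 differed from WT replicate 1. Scaled reads averaged 8478 ± 4376 in CKO and 2666 ± 1426 in WT (SD, n = 2 each). This was a log2 change of 1.68 (SE 0.56; 95% interval 0.23 to 3.13), a fold of 3.20, with an unadjusted p of 0.0313 and an adjusted p of 0.459 in limma. The change was 1.10 without WT replicate 2 and 2.25 without WT replicate 1, and it was positive under each of the 13 other settings tried.

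The 6 endothelial markers, like Rbp7, each had more scaled reads in both CKO libraries than in both WT libraries. Their part in the Rbp7 difference was not tested. For Pecam1 the gap was small, with 12389 scaled reads in CKO replicate 1 and 12329 in WT replicate 1. In RPKM these 2 libraries stood the other way round (78.6 and 78.9). The same separation was seen for 23.9% of all genes. It also held for 3 of 3 red blood cell, 2 of 2 tested T and B cell and 4 of 8 adipocyte markers. Of the smooth muscle and pericyte markers 2 of 4 were separated in this way, and of the mesothelial markers 1 of 6. The mean log2 level of the 6 endothelial markers was 12.70 and 13.31 in CKO and 12.47 and 10.96 in WT. Of the 82 list genes, Kdr, the VEGF receptor 2 gene of endothelium, was nearest to Rbp7 in pattern (distance 0.26), followed by Hbb-bs, a beta-globin gene of red blood cells (0.27). Taken against the mean of the endothelial markers, Rbp7 was at -0.30 and 0.19 in CKO and -0.63 and -0.26 in WT on the log2 scale. These groups overlapped, with a difference of 0.39. Against Pecam1 alone, the CD31 gene of endothelium, the RPKM of Rbp7 was 3.77 and 5.28 times as high in CKO and 2.59 and 3.16 times as high in WT, which left the groups apart.

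Stra6 (chr9:58063788-58153996, plus strand), the membrane receptor that takes up retinol from RBP4, was not detected. It had 0 reads in each of the 4 libraries. A count of 0 allows up to 0.119 and 0.112 reads per 1000000 in CKO and 0.124 and 0.115 in WT, from the 3 reads that a count of 0 permits, counting error only. Ttr, the transthyretin that carries RBP4 in plasma, was at 0 in all 4 libraries as well. Reads were present for Stra6l, which encodes RBPR2, the related RBP4 receptor of liver and intestine in mice. Stra6l had 8 and 78 reads in CKO and 193 and 610 in WT. Both CKO libraries were below both WT libraries, and scaled reads averaged 39.3 ± 44.3 in CKO and 421 ± 312 in WT (SD, n = 2 each). Its log2 change was -3.82 (SE 1.15), with an unadjusted p of 0.0216 and an adjusted p of 0.459 in limma. Left-out libraries moved it between -5.32 (without CKO replicate 2) and -2.33 (without CKO replicate 1). Stra6l was highest in WT replicate 2 and lowest in CKO replicate 1, as was the sum of the macrophage markers, and the part of macrophage RNA in this difference was not tested.

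Of 7 carriers listed beside Rbp4, Rbp7 and Stra6, 3 were tested, all with a negative change, and none passed. Over all genes tested 51.1% were positive, as were the changes of Rbp4 (0.85) and Rbp7 (1.68). The median of the 3 was -0.93, with -0.49 without WT replicate 2 and -1.47 without CKO replicate 2. Fabp5, which can pass retinoic acid to PPAR delta, had 2279 and 5351 reads in CKO and 4492 and 8204 in WT, and a change of -0.93 (SE 0.51; adjusted p 0.481 in limma). Left-out libraries moved Fabp5 between -1.47 (without CKO replicate 2) and -0.39 (without CKO replicate 1), with -0.49 without WT replicate 2. Rbp2, Crabp1 and Crabp2 had at most 3 reads in any library.

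Of the enzymes between retinol and retinal, Rdh10 (chr1:16105774-16133734, plus strand), the retinol dehydrogenase that feeds retinoic acid synthesis, differed between the groups by less than their spread. It had 472 and 312 reads in CKO and 348 and 215 in WT. WT replicate 1 lay between the CKO libraries, and WT replicate 2 was the lowest. Scaled reads came to 378 ± 135 in CKO and 294 ± 95.7 in WT (SD, n = 2 each), with a log2 change of 0.35 (SE 0.42; 95% interval -0.72 to 1.43; adjusted p 0.704 in limma). Leaving out CKO replicate 1 gave a change of -0.016, leaving out WT replicate 2 gave 0.017, and leaving out CKO replicate 2 gave 0.72. Upk3b, a mesothelial gene, was nearest to Rdh10 in pattern (distance 0.11).

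Dhrs3 (chr4:144892827-144928209, plus strand), the retinal reductase that turns retinal back into retinol and limits retinoic acid, had lower values in CKO. Its reads numbered 7739 and 10125 in CKO and 10154 and 16761 in WT, with CKO replicate 2 just below WT replicate 1. After scaling, both CKO libraries were below both WT libraries (7753 and 9171 in CKO, against 10544 and 17623 in WT), and WT replicate 2 was the highest. Its log2 change was -0.69 (SE 0.39; 95% interval -1.71 to 0.32), with an adjusted p of 0.489 in limma. It was -0.32 without WT replicate 2 and -1.06 without WT replicate 1, and negative under each of the 13 settings.

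Dhrs3 was ordered over the libraries like the macrophage markers, over a smaller range. The mean log2 level of the 7 macrophage markers was 10.91 and 11.64 in CKO and 12.55 and 14.17 in WT, a range of 3.26, where that of Dhrs3 was 1.19. Taken against this mean, Dhrs3 was at 2.01 and 1.52 in CKO and 0.81 and -0.067 in WT, a range of 2.08. On this relative scale both CKO libraries were higher than both WT libraries. Adgre1, which encodes the macrophage protein F4/80, had a change of -3.08. The mean log2 level of the 6 fibroblast and preadipocyte markers was also lower in both CKO libraries, at 8.23 and 8.02 in CKO and 8.82 and 9.03 in WT. The part of macrophage or fibroblast RNA in the Dhrs3 difference was not tested. Rdh11, another retinal reductase, had the nearest pattern to Dhrs3 (distance 0.11), with 328 and 511 reads in CKO and 484 and 866 in WT. Pdgfra, a fibroblast and preadipocyte marker, was second nearest (0.19). The RPKM of Dhrs3 over that of Rdh10, a pair of opposite direction that acts as a complex, was 23.3 and 46.1 in CKO and 41.5 and 111 in WT. The groups overlapped in this ratio.

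Of 15 other genes that interconvert retinol and retinal, 10 were tested, 5 with a positive and 5 with a negative change (median 0.045). Leaving out CKO replicate 1 turned the median to -0.015, leaving out WT replicate 2 turned it to -0.051, and none passed the adjusted threshold. Dhrs9, a retinol dehydrogenase that in humans also marks some macrophages, had the widest spread, with 15 and 447 reads in CKO and 1012 and 4531 in WT. Its change was -4.80 (SE 1.66; unadjusted p 0.0349; adjusted p 0.459 in limma), from -7.13 without CKO replicate 2 to -2.46 without CKO replicate 1, and both CKO libraries were below both WT libraries in the order of the macrophage markers, whose part was not tested. Rdh11 was at -0.79 (SE 0.40; adjusted p 0.466 in limma), with -0.36 when WT replicate 2 was left out and -1.22 when WT replicate 1 was. Rdh5, a retinol dehydrogenase known from the retina, was at 0.77 (SE 0.41; adjusted p 0.478 in limma) and at 0.43 with WT replicate 2 left out, and it overlaps Bloc1s1 on the same strand. Adh1, the most abundant alcohol dehydrogenase of the list per length, had 132 and 113 RPKM in CKO and 101 and 35.3 RPKM in WT.

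Aldh1a1 (chr19:20492715-20643465, plus strand), a retinaldehyde dehydrogenase abundant in fat cells, showed no separation of the groups. It had 9242 and 6559 reads in CKO and 7445 and 1841 in WT. WT replicate 2 was far below the other 3 libraries, and WT replicate 1 lay between the CKO libraries after scaling. Scaled reads averaged 7600 ± 2346 in CKO and 4833 ± 4098 in WT (SD, n = 2 each). The difference on the log2 scale was 0.94 (SE 0.71; 95% interval -0.91 to 2.78), with an adjusted p of 0.568 in limma. It was -0.060 without WT replicate 2, and 1.94 with an adjusted p of 0.0472 in limma without WT replicate 1, where the other 12 settings gave adjusted p values from 0.514 to 1.000. The close paralog Aldh1a7 can share its reads, and 2 annotated genes on the opposite strand had at most 9 reads in any library.

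Aldh1a1 followed the adipocyte markers more closely than any other of the 8 genes. Its log2 value minus their mean was -2.14 and -2.12 in CKO and -1.92 and -1.93 in WT. This range of 0.22 compares with 2.26 for Aldh1a1 alone. On this relative scale both CKO libraries were lower than both WT libraries, by 0.21. Cidec was again the nearest gene in pattern, at a distance of 0.073, and Lipe was at 0.17. The RPKM of Rbp4 over that of Aldh1a1 was 3.71 and 4.57 in CKO and 4.86 and 3.96 in WT, with overlapping groups. The part of adipocyte RNA in the differences of Rbp4 and Aldh1a1 was not tested.

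**Figure D3:**
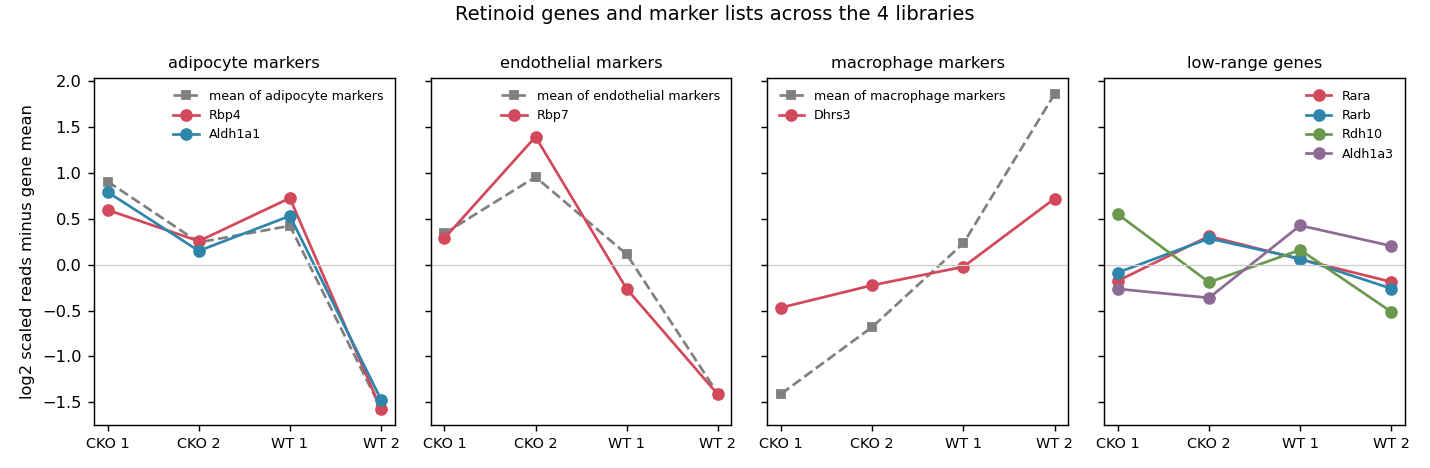
Log2 scaled reads of the 8 genes minus each gene's mean over the 4 libraries, with the mean of the adipocyte, endothelial or macrophage markers centred in the same way (dashed). Lines join points of 1 gene or list and carry no order in time. Aldh1a1 and Rbp4 follow the adipocyte markers, Rbp7 the endothelial markers and Dhrs3 the order of the macrophage markers, while Rara and Rarb have ranges of 0.50 and 0.55. The mean of the red blood cell markers, not drawn, had the same order of libraries as Rbp7.

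Aldh1a3 (chr7:66390890-66427517, minus strand), another retinaldehyde dehydrogenase, was low but separated the groups. It had 150 and 155 reads in CKO and 234 and 198 in WT. Both CKO libraries were below both WT libraries, and the replicates of each group lay close together. Scaled reads averaged 145 ± 6.98 in CKO and 226 ± 24.6 in WT (SD, n = 2 each). CKO minus WT was -0.63 on the log2 scale (SE 0.32; 95% interval -1.46 to 0.20), with an adjusted p of 0.471 in limma. It ranged from -0.74 to -0.50 over the 13 other settings, the narrowest range of the 8 genes.

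The balance between retinaldehyde dehydrogenases differed among the libraries. Aldh1a2, known in this depot from mesothelium and from immune cells, had 252 and 843 reads in CKO and 1162 and 1151 in WT, with both CKO libraries below both WT libraries. Its log2 change was -1.46 (SE 0.56), with an unadjusted p of 0.0477 and an adjusted p of 0.459 in limma. It was -1.46 with either WT library left out, but -0.66 without CKO replicate 1 and -2.26 without CKO replicate 2. The RPKM of Aldh1a1 over that of Aldh1a2 was 16.8 and 3.57 in CKO and 2.94 and 0.733 in WT, so Aldh1a2 exceeded Aldh1a1 per length in WT replicate 2 alone. The RPKM of Aldh1a1 over Aldh1a3 was 57.6 and 39.6 in CKO and 29.8 and 8.70 in WT. Both ratios were higher in both CKO libraries than in both WT libraries, with CKO replicate 1 highest and WT replicate 2 lowest, as for the adipocyte marker sum, whose part was not tested. Aldh1a2 overlaps a pseudogene on the opposite strand. The 6 mesothelial markers summed to 364.6 and 219.2 scaled reads in CKO and 301.1 and 156.7 in WT, with overlapping groups. Aldh1a7 had a change of 0.70 (SE 0.55; adjusted p 0.581 in limma), which was 0.020 without WT replicate 2, 0.28 without CKO replicate 1 and 1.37 without WT replicate 1.

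Clearance of retinoic acid by the CYP26 enzymes was represented by Cyp26b1. It had 365 and 498 reads in CKO and 318 and 71 in WT, and a log2 change of 1.36 (SE 0.74; adjusted p 0.481 in limma). The change was 0.30 without WT replicate 2, and 2.43 with an adjusted p of 0.0442 in limma without WT replicate 1. Cyp26a1 and Cyp26c1 had at most 1 read in any library. Of 6 genes listed for synthesis and breakdown beside Aldh1a1 and Aldh1a3, 3 were tested, 2 with a positive and 1 with a negative change (median 0.70, and 0.020 without WT replicate 2), and none passed.

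The receptor gene Rara (chr11:98927818-98974942, plus strand), which encodes RAR alpha, had the narrowest range of the 8 genes, 0.50 on the log2 scale. It had 528 and 818 reads in CKO and 599 and 499 in WT. CKO replicate 2 was the highest and WT replicate 1 the next, and the groups overlapped. Scaled reads averaged 635 ± 150 in CKO and 573 ± 68.8 in WT (SD, n = 2 each), with a log2 change of 0.13 (SE 0.29; 95% interval -0.62 to 0.88; adjusted p 0.847 in limma). Without CKO replicate 2 the change was -0.11, without WT replicate 2 it was 0.009 and without CKO replicate 1 it was 0.38.

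Rarb (chr14:16430839-16819156, minus strand), the RAR beta gene whose promoter element is printed above, was the lowest of the genes with reads. It had 83 and 119 reads in CKO and 89 and 70 in WT. The groups overlapped, and scaled reads averaged 95.5 ± 17.4 in CKO and 83.0 ± 13.3 in WT (SD, n = 2 each). Its log2 change was 0.20 (SE 0.40; 95% interval -0.85 to 1.24; adjusted p 0.835 in limma). It was 0.011 without CKO replicate 2, 0.035 without WT replicate 2 and 0.38 without CKO replicate 1. Top2b, which overlaps Rarb on the opposite strand, had 3530 and 3819 reads in CKO and 2939 and 2861 in WT. Whether strand was used in counting is not stated, and without it reads of both genes cannot be told apart where they overlap.

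Rara and Rarb kept a steady ratio in the 4 libraries. The RPKM of Rara over that of Rarb was 7.67 and 8.29 in CKO and 8.12 and 8.60 in WT. Rarg, the gene of the RAR gamma isotype, was nearest to Rarb in pattern (distance 0.094), and Rdh12, a retinal reductase, was nearest to Rara (0.080), ahead of Rarg (0.11). Rarg had 4.46 and 6.65 RPKM in CKO and 4.61 and 3.55 RPKM in WT. Rara stood at 1.07 and 1.05 times Rarg in CKO and at 1.23 times Rarg in both WT libraries. In this measure, genes that vary little lie close to each other.

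**Figure D4:**
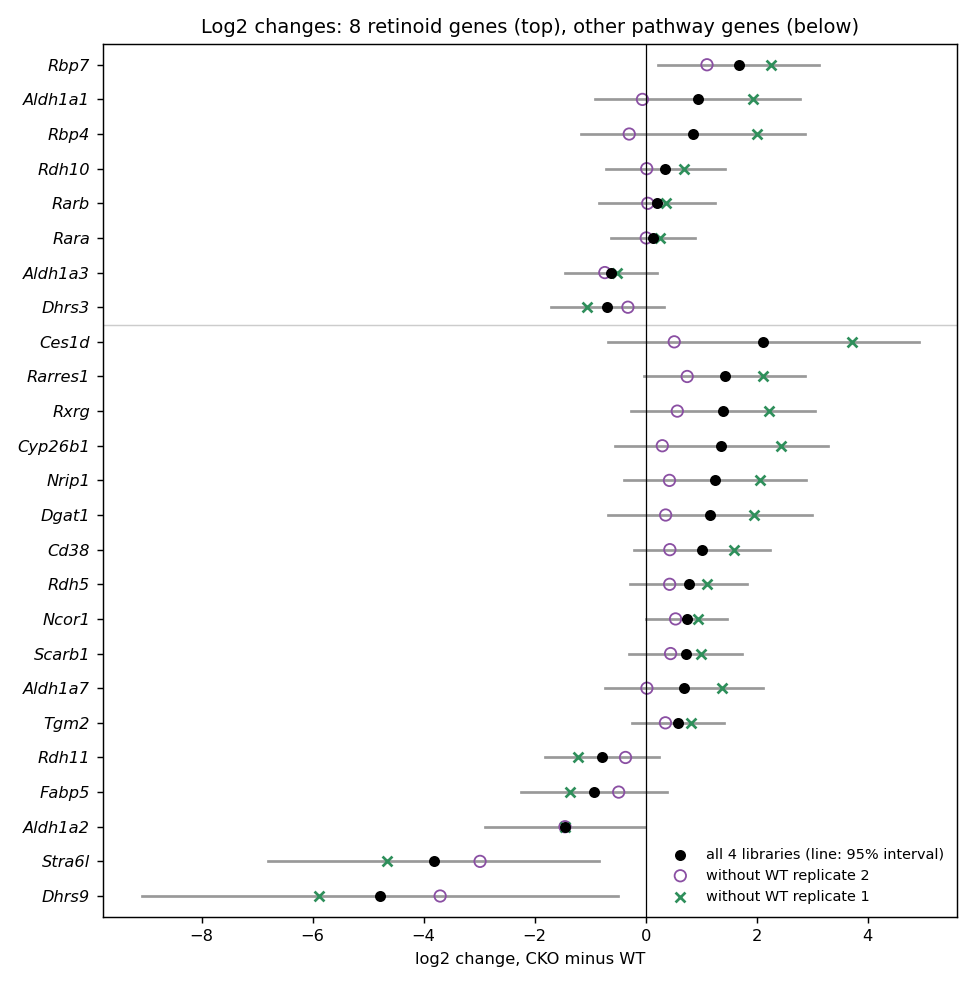
Log2 changes, CKO minus WT, of the 8 genes (upper block) and of other pathway genes (lower block), with 95% intervals and the values without WT replicate 2 (open circles) and without WT replicate 1 (crosses). Rbp4 and Aldh1a1 cross 0 when WT replicate 2 is left out, and Stra6l and Dhrs9 have the lowest values.

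All 11 receptors and coregulators listed beside Rara and Rarb were tested, 8 with a positive and 3 with a negative change (median 0.34), and none passed. Of all genes tested, 51.1% were positive. The median of the 11 was 0.087 without CKO replicate 2, 0.22 without WT replicate 2 and 0.55 without CKO replicate 1. Rxrg, a retinoid X receptor isotype, had 993 and 612 reads in CKO and 482 and 150 in WT, and a change of 1.40 (SE 0.64; adjusted p 0.459 in limma). It was 0.57 without WT replicate 2, and 2.23 with an adjusted p of 0.0484 in limma without WT replicate 1. Ncor1, a corepressor that RARs bind in the absence of ligand, had 6958 and 7479 reads in CKO and 4561 and 3398 in WT, and a change of 0.74 (SE 0.28; unadjusted p 0.0475; adjusted p 0.459 in limma). Nrip1, a corepressor of metabolic genes in fat, was at 1.24 (SE 0.64; adjusted p 0.471 in limma), with 0.43 when WT replicate 2 was left out and 2.06 when WT replicate 1 was. Ncor1 overlaps the protein-coding genes Pigl and Ttc19 on the opposite strand. Rxra was the most abundant RXR per length, with 43.3 and 28.2 RPKM in CKO and 28.3 and 11.1 RPKM in WT.

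Genes listed under ester storage and carotenoids, which include the hydrolases Lipe and Ces1d, had positive changes in 7 of 7 tested of 8 listed (median 0.72). Of these, 0 were past the adjusted threshold in limma and 0 had an unadjusted p under 0.05, where 51.1% of all genes tested were positive. With WT replicate 2 left out 5 of 7 were positive and the median was 0.26, and without WT replicate 1 the median was 1.32. The 8 genes summed to 92769 and 62301 scaled reads in CKO and 58716 and 18463 in WT, with CKO replicate 1 highest and WT replicate 2 lowest, as for the adipocyte marker sum, whose part was not tested. Ces1d, a carboxylesterase of fat that hydrolyses neutral lipid, had 22418 and 14843 reads in CKO and 11725 and 1258 in WT, and a change of 2.11 (SE 1.09; adjusted p 0.471 in limma). It was 3.72 with an adjusted p of 0.0442 in limma without WT replicate 1, and 0.51 without WT replicate 2. Scarb1, a scavenger receptor that takes up carotenoids, was at 0.72 (SE 0.40; adjusted p 0.482 in limma), with 0.44 when CKO replicate 2 was left out and 0.45 when WT replicate 2 was. Dgat1, which can esterify retinol as well as make triglyceride, was at 1.16 (SE 0.71; adjusted p 0.511 in limma) and 0.36 without WT replicate 2. Lrat, the main retinol esterifying enzyme of liver, had 6 and 4 reads in CKO and 1 and 0 in WT.

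Genes listed as responsive to retinoic acid had positive changes in 5 of 6 tested of 7 listed, and none passed. Over all genes tested 51.1% were positive, as were 7 of 8 adipocyte and 6 of 6 endothelial markers, whose part was not tested. Rarb, left out of this list, had a change of 0.20. The median of the responsive genes was 0.80, with 0.34 without WT replicate 2, 0.52 without CKO replicate 2 and 1.20 without WT replicate 1. Rarres1, a retinoic acid receptor responder, had 599 and 405 reads in CKO and 269 and 103 in WT, and a change of 1.43 (SE 0.56; unadjusted p 0.0527; adjusted p 0.459 in limma). It was 0.75 without WT replicate 2, and 2.11 with an adjusted p of 0.0491 in limma without WT replicate 1. Cd38, an NAD-consuming enzyme induced by retinoic acid in human myeloid cells, was at 1.01 (SE 0.48; adjusted p 0.459 in limma). Tgm2, the tissue transglutaminase, was at 0.58 (SE 0.32; adjusted p 0.482 in limma) and at 0.35 with WT replicate 2 left out. Cd38 was 0.43 without WT replicate 2. Cd38 and Tgm2 overlap annotated genes on the opposite strand. Ucp1, the uncoupling protein of thermogenic fat, had at most 5 reads in any library.

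Over the 54 pathway genes beside the 9, 40 were tested and 27 (67.5%) had a positive change, against 51.1% of all genes tested. At an unadjusted p under 0.05 in limma there were 1 higher (2.5%) and 3 lower (7.5%). The shares of all genes were 3.35% and 7.26%, and none passed after adjustment. Each CKO library exceeded each WT library for 11 (27.5%) and was below each for 6 (15%), against 23.9% and 26.8% of all genes.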

How the data were processed

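RNA was extracted with TRIzol and RNeasy columns and read on an Illumina NovaSeq, per the labels' protocols. The submitters' processing notes list STAR 2.7.5c, FastQC and GRCm38.p6. The counter, its annotation and whether it used strand were not given in the sources used here. Log2 values, named normalised, were deposited by the authors. In each library 100% of the deposited values came out as log2(whole reads + 1) within 0.01, with unequal totals, so they hold no scaling. Reads were scaled by median-of-ratios size factors (0.998 and 1.10 for CKO replicates 1 and 2, 0.963 and 0.951 for WT; 19847 genes), and a pseudocount of 1 was added, which shrinks the fold changes of genes with few reads.

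Genes whose deposited log2 values averaged 3 or more were fitted in limma 3.58.1 (R 4.3.3, trended eBayes, two-sided) with group as the only term; p-values were adjusted by Benjamini-Hochberg across these genes. The fit was tested on simulated reads set to vary less between libraries than the deposited reads do, which checks the code and not the power here. RPKM and gene coordinates used GENCODE M21 on GRCm38, with merged exons (99.3% of identifiers matched). Replicates are numbered by record order and pair no samples; nothing says that they come from separate animals, and the p-values then reflect only how these libraries vary, which may be technical. The limit from a count of 0 covers counting error only. The genes, lists and naming rule were chosen with earlier results of these data known. The rule names the 9 genes, the 3 tested genes of smallest unadjusted p in each pathway list, the first 2 markers of each list, and the 2 list genes nearest each member in centred log2 values (root mean square). Some results under this rule are not reported here. Other genes named were chosen after their values were seen.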

Additional observations from a re-analysis of the deposited data

How the results depend on the processing

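The 13 other settings were voom weights, robust variances, no variance trend, no filter, a log2 minimum of 6, unscaled values, scaling by total reads, quantile normalisation, a pseudocount of 10, and each of the 4 libraries left out. The count of genes passing the adjusted threshold was 0 in limma under each setting but one, and in the fit of all 4 libraries 566 genes higher and 1224 lower had an unadjusted p under 0.05. When 1 library was left out it ran from 0 to 1775 genes, and from 0 to 2 of the 8 retinoid genes. The highest values were those without WT replicate 1 (837 genes higher, 938 lower, and Rbp4 and Aldh1a1 among the retinoid genes). Of 104 values of the 8 retinoid genes under these settings, 4 changed sign, each with 1 library left out. Over those fits the changes of Rbp4 ran from -0.298 to 1.996, of Aldh1a1 from -0.060 to 1.937, of Rdh10 from -0.016 to 0.724 and of Rara from -0.111 to 0.375. Of 234 values of 18 other pathway genes, 0 changed sign, and 4 passed the adjusted threshold, all without WT replicate 1 (Ces1d, Cyp26b1, Rxrg and Rarres1, whose adjusted p was 0.431 to 1.000 under the other settings). These 18 genes were picked for the smallest unadjusted p of each pathway list in the limma fit of all 4 libraries. That choice favours a stable sign, so their signs cannot be set against those of the 8 genes. Unscaled values moved the median over all genes to 0.147, against 0.015, and changed no sign of the 8 genes. No paired analysis was possible because the labels give no replicate numbers that the groups share. With 2 libraries a group, the widest 95% interval among the 8 genes, that of Rbp4, spans -1.18 to 2.87.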
